A study of Mus musculus with 16 samples.

Results

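Phase II conjugation enzymes join a polar group to drugs, pollutants, bile pigments and hormones so that these can leave the cell. UDP-glucuronosyltransferases (UGTs) transfer glucuronic acid, cytosolic sulfotransferases (SULTs) transfer sulfate, and cytosolic glutathione S-transferases (GSTs) join glutathione to electrophiles. In the colon they act at the epithelial lining, where most UGT and SULT expression is known from differentiated surface cells. The genes described here are the protein-coding mouse genes whose symbols place them in the Ugt1, Ugt2, Sult, Gsta, Gstm, Gstp, Gstt, Gsto, Gstz or Gstk series, and that had 10 or more reads in at least 2 of 16 libraries. Of 62 genes by name 38 qualified, out of 54123 genes counted. They are 7 of 9 Ugt1a genes, 4 of 10 Ugt2 genes, 5 of 6 Sult1 genes, 1 of 15 other Sult genes (Sult2b1), and 21 of 22 GST genes. The other 24 had at most 10 reads in any library. They include Sult1e1, which sulfates oestrogens, and the 8 Sult2a genes, all at 0 reads in all 16 libraries.

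Each library is 1 organoid culture of mouse colon, taken from its proximal or its distal end, with the control guide Scramble-sgRNA or with Cdx2-sgRNA, and ended in medium that is called WENR-plus or WENR-minus, giving 8 groups of 2. WENR-plus holds Wnt3a, EGF, Noggin and R-spondin 1, and WENR-minus lacks all 4 for the final 3 days. All groups share a genotype, a heterozygous Cre-inducible BRAF V600E allele with a heterozygous tdTomato reporter, from female mice aged 8 weeks, and none of the labels names Cre treatment. Lentiviral Cas9 and blasticidin selection were used for both guides, but only the Cdx2-sgRNA lines were grown from a single clone with a Cdx2 frameshift, so a clone and the loss of Cdx2 cannot be told apart within 1 line. The replicates of a group come from 2 mice. Levels are given in CPM (counts scaled to library size, with TMM factors), as the values of replicates 1 and 2, and a gene is called changed in edgeR's quasi-likelihood test, run on all 15289 tested genes, where its log2 fold change is over 1 in either direction and its adjusted p below 0.05. All 38 genes were tested.

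Totals per library ranged from 12465194 to 18922143 counts. Cdx2 RNA was lower in proximal Cdx2-sgRNA than in Scramble-sgRNA organoids (log2 −2.09 in WENR-plus and −1.29 in WENR-minus), while distal differences were −0.36 (adjusted p = 0.857) and −0.067 (adjusted p = 0.876). A count of RNA does not read a frameshift. All 7 colon epithelium markers reached 10 reads in every group, and the 6 fibroblast markers summed to at most 1.115 CPM in any library. Markers of several cell types moved with the groups compared below. The 7 colonocyte markers (Car1, Car4, Slc26a3, Aqp8, Krt20, Fabp2, Ceacam1) summed to 10030 to 14060 CPM in proximal Scramble-sgRNA WENR-minus libraries and 1247 to 2718 in proximal Cdx2-sgRNA ones, against 10650 to 15600 and 22490 to 22860 in distal organoids. The 7 goblet cell markers summed to 6176 to 7242 and 55.3 to 67.85 CPM in the same proximal groups, the 5 enteroendocrine markers to 116 to 191 and 0.846 to 1.86 CPM, the 5 cycling markers to 302 to 505 and 628 to 734 CPM, the 5 immune markers to 0.124 to 0.208 and 5.92 to 20.3 CPM (0 and 2 of 5 with 10 reads), and the 4 hepatocyte markers to 1.46 to 1.74 and 24.8 to 31.5 CPM (1 of 4 in both). Of the immune markers Csf1r reached 261 reads in a library, and Ptprc, the next, at most 12. The 5 stem markers summed to 135 to 193 and 122 to 189 CPM in these proximal groups. The 6 small intestine markers summed to 107.6 to 108.6 and 0.149 to 0.370 CPM, and the 3 tuft markers to 0 to 0.313 and 1.11 to 6.35 CPM. In bulk RNA, fewer cells of a type and less RNA per cell cannot be told apart, and the part of cell composition in the results was not tested.

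Promoter sequence is shown for 6 genes whose responses are contrasted below. Ugt1a1, Ugt1a6a and Ugt1a7c are alternative first exons of 1 locus on chromosome 1, each with its own promoter and joined to the same downstream exons, and they responded unequally to Cdx2-sgRNA. Sult1d1 was among the genes that fell, and Gsta3 and Gsto1 among those that rose. Each line gives the 150 bases before the RefSeq start site on the gene's strand, 5′ to 3′, GRCm38.p6. Capitals mark matches, on either strand, to 5 motifs: TGACNNNGC (antioxidant response element core, bound by Nrf2), GCGTG (aryl hydrocarbon receptor core), CATAAA (Cdx core), CAAAGTC (part of the Hnf4a motif) and GTTAAT (Hnf1 half-site).
Ugt1a1, chr1:88211809-88211958, plus strand: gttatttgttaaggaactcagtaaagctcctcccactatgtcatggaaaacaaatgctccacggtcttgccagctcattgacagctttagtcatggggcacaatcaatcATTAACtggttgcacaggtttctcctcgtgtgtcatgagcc
Ugt1a6a, chr1:88134659-88134808, plus strand: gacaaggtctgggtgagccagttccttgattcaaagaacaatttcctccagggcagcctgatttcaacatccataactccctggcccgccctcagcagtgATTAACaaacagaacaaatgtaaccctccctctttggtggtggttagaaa
Ugt1a7c, chr1:88094851-88095000, plus strand: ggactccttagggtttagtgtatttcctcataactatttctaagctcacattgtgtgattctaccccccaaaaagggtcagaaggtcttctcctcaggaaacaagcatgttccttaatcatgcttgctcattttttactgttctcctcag
Sult1d1, chr5:87569007-87569156, minus strand: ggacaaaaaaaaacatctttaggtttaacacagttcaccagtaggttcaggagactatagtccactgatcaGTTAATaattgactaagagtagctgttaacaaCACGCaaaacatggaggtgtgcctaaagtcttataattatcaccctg
Gsta3, chr1:21240435-21240584, plus strand: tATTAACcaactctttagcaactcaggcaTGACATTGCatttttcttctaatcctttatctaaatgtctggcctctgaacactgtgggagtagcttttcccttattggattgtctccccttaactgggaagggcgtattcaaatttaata
Gsto1, chr19:47854823-47854972, plus strand: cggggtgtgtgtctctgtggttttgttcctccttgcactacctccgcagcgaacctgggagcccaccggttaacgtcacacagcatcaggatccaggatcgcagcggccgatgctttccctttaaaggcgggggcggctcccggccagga
With the base just before the start as −1, the Hnf1 half-site begins at −41 in Ugt1a1 and at −50 in Ugt1a6a, reading ATTAAC on the strand shown, and none of the 5 motifs is in the Ugt1a7c or Gsto1 window. Sult1d1 holds the Hnf1 letters from −79 and the aryl hydrocarbon receptor letters, as CACGC, from −47. Gsta3 holds TGACATTGC from −121 and ATTAAC from −149.

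RefSeq promoters of 300 bases (250 before and 50 after the start) were at hand for 35 of the 38 genes, 45 promoters in all. The Hnf1 letters were in 6 of the 45 (13.3%) against 7.1% of 32851 promoters, in Ugt1a1, Ugt1a6a, Ugt1a10, Sult1a1, Sult1d1 and Gsta3. The antioxidant response letters were in 3 (6.7% against 12.4%), the promoters of Gsta3, Gstm5 and Gstm7. The Cdx letters were in 3 (6.7% against 11.9%), those of Gstm5, Gstm6 and Sult1d1, and the Hnf4a letters in 2 (4.4% against 4.4%), those of Gstm3 and Sult1b1. The aryl hydrocarbon receptor letters were in 12 promoters of 10 genes (26.7% against 32.4%). The Hnf1 letters are thus in Ugt1a1 and Sult1d1, which fell in proximal Cdx2-sgRNA organoids in WENR-minus medium, and in Gsta3 and Sult1a1, which rose there. A match is a description of these letters and not a tested binding site.

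The same gene families hold near-copies, which limits how far 1 gene's count can be read. Of the 31-base words in transcripts of Gsta1, 92.9% also occur in another gene, mostly Gm3776. The share was 60.7% for Gsta2, 60.3% for Gstp2, 56.4% for Ugt2b5, 38.5% for Gstp1, 37.7% for Gstm3 and 28.8% for Gstm1, and 53.0 to 84.2% for the 7 Ugt1a genes. No such word of Gsto1, Gsto2, Gsta4, Gstm5, Sult1b1, Sult1c1, Sult1d1 or Sult2b1 occurs in another gene, and 2.7% of those of Gsta3 and 2.9% of those of Ugt2b34 do. Sums over subfamilies are therefore given beside the single genes. They do not depend on how reads are divided among the members, but they do depend on the division between members and genes outside the sums, such as Gm3776, which holds 80.3% of the words of Gsta1, Gm8834 (24.7% of those of Gstm3) and Gstm2-ps1 (22.6% of those of Gstm1).

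Per length, Gsto1, an omega-class enzyme that also reduces dehydroascorbate, was the most abundant member, with a median of 463 TPM (abundance per transcript length, over 16 libraries) and a range of 292 to 3548. The pi-class genes Gstp1 and Gstp2 followed at 317 TPM (108 to 684) and 314 TPM (73.3 to 1099). Gsta4, which conjugates the lipid peroxidation product 4-hydroxynonenal, had a median of 302 TPM (99.2 to 903), and Ugt2b34, the most abundant UGT here, 274 TPM (19.5 to 434). The ranges of the 5 overlap, so this order holds for the medians only. At the other end, 8 members (Gsto2, Gsta2, Ugt2b36, Sult1c1, Ugt1a2, Ugt1a5, Ugt1a6b and Ugt1a10) had at most 48 reads in any library.

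**Figure D1:**
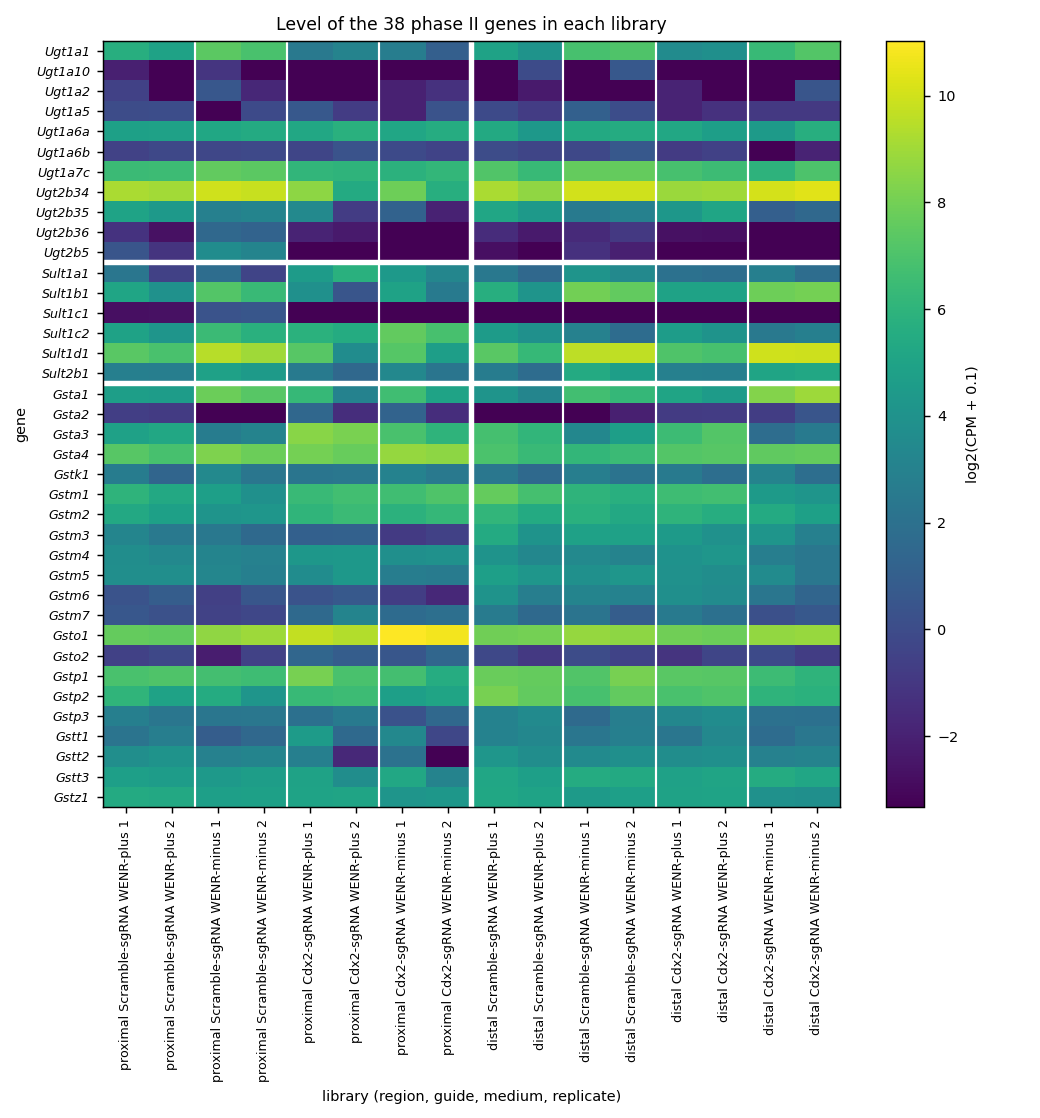
Colour gives the level of each of the 38 genes (rows, UGTs, SULTs and GSTs from top to bottom) in each of the 16 libraries (columns) as log2(CPM + 0.1). In both proximal Cdx2-sgRNA groups Ugt1a1 is darker and Gsto1 and Gsta3 are brighter than in the Scramble-sgRNA libraries beside them, and the columns of replicate 2 are darker than those of replicate 1 for Ugt2b34, Ugt2b35, Sult1b1, Sult1d1 and Gstt2.

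The first question was how the loss of Cdx2, a transcription factor of intestinal identity, moves these enzymes in proximal organoids. In WENR-minus medium 18 of the 38 genes were called, 10 lower and 8 higher (47.4%), against 21.2% of all tested genes (12.1% lower and 9.04% higher), and the median log2 fold change was −0.38 over the 38 genes and 0 over all genes. The UGTs and most SULTs that changed were lower in Cdx2-sgRNA organoids (9 of 10 calls), and the GSTs that changed were mostly higher (7 of 8 calls). Among the 10 lower, Ugt2b36 and Sult1c1 had 10 or more reads in 2 libraries only and Ugt2b5 in 3, all of them proximal Scramble-sgRNA. These genes qualified through the group where they are high, so their calls against it, here and below, are no support. The number in WENR-plus medium was 8 (21.1%), with 5 higher and 3 lower, against 15.9% of all genes (6.93% higher and 8.94% lower).

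Among UGTs, Ugt1a1, the enzyme that conjugates bilirubin, stood at 173 and 122 CPM in proximal Scramble-sgRNA and 6.76 and 1.90 in Cdx2-sgRNA libraries in WENR-minus medium. The groups do not overlap, and the log2 fold change was −5.12 (SE 0.58, adjusted p = 9.04e-05). In WENR-plus medium its levels were 50.6 and 31.1 against 5.45 and 8.57 CPM, which gave −2.54 on the log2 scale (SE 0.52, adjusted p = 0.00507). Ugt2b34, a glucuronosyltransferase of the second UGT family, stood at 1029 and 906 CPM in Scramble-sgRNA and at 233 and 50.7 CPM in Cdx2-sgRNA libraries in WENR-minus medium (log2 −2.77, SE 0.83, adjusted p = 0.0262). Both Cdx2-sgRNA libraries were below both controls but 4.59-fold apart from each other, and the call was lost without Scramble-sgRNA replicate 1 (log2 −2.65, adjusted p = 0.0786) or 2 (−2.88, 0.0519) or without Cdx2-sgRNA replicate 2 (−2.06, 0.141). In WENR-plus medium Ugt2b34 was not called (599 and 524 against 389 and 42.9 CPM, adjusted p = 0.23).

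Ugt2b5 was read in proximal Scramble-sgRNA organoids at 12.5 and 8.75 CPM (202 and 168 reads) in WENR-minus and at 1.29 and 0.355 CPM in WENR-plus medium, and at 0 reads in all 4 proximal Cdx2-sgRNA libraries. With 3 reads per library as the limit of a count of 0, this is a level at least 55.8-fold below the controls in WENR-minus (adjusted p = 0.000974), and in WENR-plus organoids at least 4.95-fold below them (adjusted p = 0.0123), and the latter call was lost without Scramble-sgRNA replicate 1 (adjusted p = 0.054) or Cdx2-sgRNA replicate 2 (0.0528). Ugt2b36 had 44 and 43 reads in the proximal Scramble-sgRNA WENR-minus libraries and 0 in the Cdx2-sgRNA ones, at least 13-fold lower (adjusted p = 0.00108). Both genes qualified through these control libraries, so the rule itself favours a lower level in the Cdx2-sgRNA ones. Ugt2b38, with which Ugt2b5 shares 44.9% of its 31-base words, had at most 1 read in any library.

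The 7 Ugt1a genes did not move alike. Ugt1a6a, an enzyme for small phenols, stood at 37.2 and 44.1 CPM in proximal Scramble-sgRNA and 35.6 and 46.8 CPM in Cdx2-sgRNA libraries in WENR-minus medium, so the groups overlap (log2 0.018, SE 0.39, adjusted p = 0.981). Ugt1a7c fell from 190 and 173 to 59.2 and 72.9 CPM (log2 −1.46, SE 0.31, adjusted p = 0.00468), less than Ugt1a1. Ugt1a1 accordingly held 42.9% and 35.8% of all Ugt1a reads in the proximal Scramble-sgRNA WENR-minus libraries and 6.58% and 1.54% in the Cdx2-sgRNA ones. In distal WENR-minus organoids its share was 32.3% and 35.3% with Scramble-sgRNA and 49.0% and 44.6% with Cdx2-sgRNA. In WENR-plus medium the share was lower with Cdx2-sgRNA in both regions. It was 30.1% and 20.5% against 4.64% and 6.60% in proximal, and 14.3% and 13.7% against 7.05% and 10.3% in distal organoids. Of the other 4, Ugt1a2, Ugt1a5, Ugt1a6b and Ugt1a10, none exceeded 2.00 CPM in any library, and none was called in proximal organoids.

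**Figure D2:**
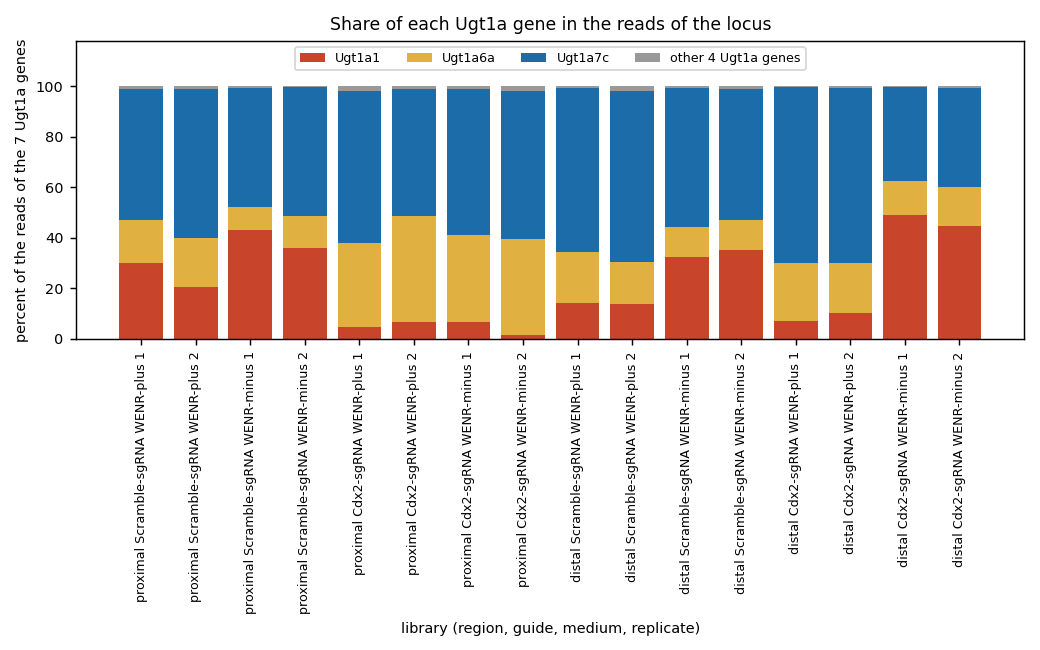
Stacked bars give the percent of the reads of the 7 Ugt1a genes that was assigned to Ugt1a1, Ugt1a6a, Ugt1a7c and the other 4 genes together, for each of the 16 libraries. The Ugt1a1 part is 1.54 to 6.60% in the 4 proximal Cdx2-sgRNA libraries and 7.05 to 49.0% in the other 12.

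Of the 6 SULTs, 4 were lower and 1 higher in proximal Cdx2-sgRNA organoids in WENR-minus medium. Sult1d1, which sulfates catecholamines and was the most abundant SULT by count, stood at 704 and 515 CPM in Scramble-sgRNA and 154 and 25.9 CPM in Cdx2-sgRNA libraries (log2 −2.77, SE 0.96, adjusted p = 0.0474). Sult1b1, an enzyme for thyroid hormones and phenols, stood at 147 and 85.9 against 30.7 and 5.92 CPM (log2 −2.68, SE 0.93, adjusted p = 0.0487). Neither pair of groups overlaps, but both calls were lost without Scramble-sgRNA replicate 1 (Sult1d1 −2.49, 0.138; Sult1b1 −2.21, 0.171) or 2 (−2.996, 0.0737 and −3.04, 0.0632) and without Cdx2-sgRNA replicate 2 (−1.99, 0.21 and −1.92, 0.224). Sult2b1, which sulfates cholesterol, stood at 30.1 and 22.9 against 10.2 and 4.76 CPM (log2 −1.84, SE 0.44, adjusted p = 0.00839), a call lost without Cdx2-sgRNA replicate 2 (−1.38, 0.0718). Sult1c1 had 1.18 and 1.35 CPM in the controls and 0 reads after Cdx2-sgRNA, at least 6.64-fold lower (adjusted p = 0.0136, and 0.0548 to 0.0571 in the 3 omissions of 1 library that ended the call: Scramble-sgRNA replicates 1 and 2 and Cdx2-sgRNA replicate 2).

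Sult1a1, the main phenol sulfotransferase, went the other way. In WENR-minus medium it stood at 3.35 and 0.677 CPM in Scramble-sgRNA and 21.3 and 9.36 CPM in Cdx2-sgRNA organoids (log2 2.94, SE 0.92, adjusted p = 0.031). In WENR-plus medium it stood at 4.92 and 0.592 against 23.4 and 55.0 CPM (log2 3.81, SE 0.92, adjusted p = 0.0123). Replicate 1 was the higher of the controls in both media, and the call was lost without Scramble-sgRNA replicate 2 in either medium (log2 2.17, adjusted p = 0.164 in WENR-minus and 3.03, 0.0649 in WENR-plus), without Cdx2-sgRNA replicate 1 in WENR-minus (2.25, 0.127) and without Cdx2-sgRNA replicate 2 in WENR-plus (3.06, 0.0642). No other SULT was called in WENR-plus medium. Sult1c2 was not called in either medium (88.6 and 55.2 against 193 and 116 CPM in WENR-minus, log2 1.105, adjusted p = 0.0669).

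Among GSTs, the alpha-class gene Gsta3 rose in both media. It stood at 6.44 and 8.55 CPM in proximal Scramble-sgRNA and 122 and 64.0 CPM in Cdx2-sgRNA libraries in WENR-minus (log2 3.63, SE 0.51, adjusted p = 0.000331), and at 29.7 and 39.5 against 353 and 284 CPM in WENR-plus medium (log2 3.20, SE 0.49, adjusted p = 0.000942). Gsto1 rose from 403 and 492 to 2089 and 1730 CPM in WENR-minus (log2 2.09, SE 0.18, adjusted p = 9.71e-06) and from 198 and 188 to 848 and 651 CPM in WENR-plus medium (log2 1.96, SE 0.17, adjusted p = 2.67e-05). Neither gene lost its call under any omission of 1 library in either medium. In WENR-minus medium Gsto1 alone was thus higher in both Cdx2-sgRNA libraries than the sum of all 21 GST members in the Scramble-sgRNA libraries (1234 and 1128 CPM).

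Mu-class genes, which conjugate aryl halides and epoxides, were divided. Gstm1 stood at 26.9 and 14.9 CPM in proximal Scramble-sgRNA and 100.4 and 137 CPM in Cdx2-sgRNA libraries in WENR-minus medium (log2 2.51, SE 0.35, adjusted p = 0.000353), and Gstm2 at 17.0 and 18.4 against 58.7 and 75.9 CPM (log2 1.93, SE 0.31, adjusted p = 0.000865). Gstm3 moved in the opposite direction, from 5.27 and 2.92 to 0.445 and 0.582 CPM (log2 −2.95, SE 0.64, adjusted p = 0.00503), and from 9.17 and 5.39 to 1.97 and 2.12 CPM in WENR-plus medium (log2 −1.83, adjusted p = 0.0288). Gstm7 rose at a low level in both media, in WENR-plus from 1.39 and 1.07 to 2.84 and 8.88 CPM (log2 2.25, SE 0.61, adjusted p = 0.0203). Its call in WENR-minus (log2 2.34, adjusted p = 0.0168) was lost in 3 of 4 omissions (2.19 to 2.45, adjusted p = 0.0671 to 0.092), all but that of Cdx2-sgRNA replicate 1. Its call in WENR-plus was lost without Cdx2-sgRNA replicate 2 (log2 1.204, adjusted p = 0.206) and without Scramble-sgRNA replicate 1 (2.51, 0.0803) or 2 (2.12, 0.117). That of Gstm3 was lost without Scramble-sgRNA replicate 1 (−1.34, 0.185) or Cdx2-sgRNA replicate 1 (−1.78, 0.11) or 2 (−1.89, 0.112).

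The other GSTs that passed the test in proximal organoids were Gstm2 in WENR-plus (log2 1.17, SE 0.30, adjusted p = 0.0167) and, both at under 3 CPM, Gsto2 (log2 2.33, adjusted p = 0.0277) and Gsta2 in WENR-minus medium. The call of Gstm2 was lost without Scramble-sgRNA replicate 2 (0.98, 0.115) or Cdx2-sgRNA replicate 2 (0.96, 0.0986), and that of Gsto2 without Scramble-sgRNA replicate 1 (1.67, 0.134) or Cdx2-sgRNA replicate 2 (1.78, 0.159). Gsta2 was at 0 reads in both controls and at 31 and 5 reads in the Cdx2-sgRNA libraries, at least 7.50-fold higher (adjusted p = 0.0267, and 0.0966 to 0.127 without Scramble-sgRNA replicate 1 or 2 or Cdx2-sgRNA replicate 1). Gstp1, Gstp2 and Gsta4, among the most abundant members per length, were not called in either medium. Gsta4 stood at 304 and 224 against 433 and 385 CPM in WENR-minus medium, with no overlap of the groups (log2 0.63, SE 0.23, adjusted p = 0.0581), and in WENR-plus its adjusted p of 0.0284 went with a log2 fold change of 0.79, under the threshold.

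**Figure D3:**
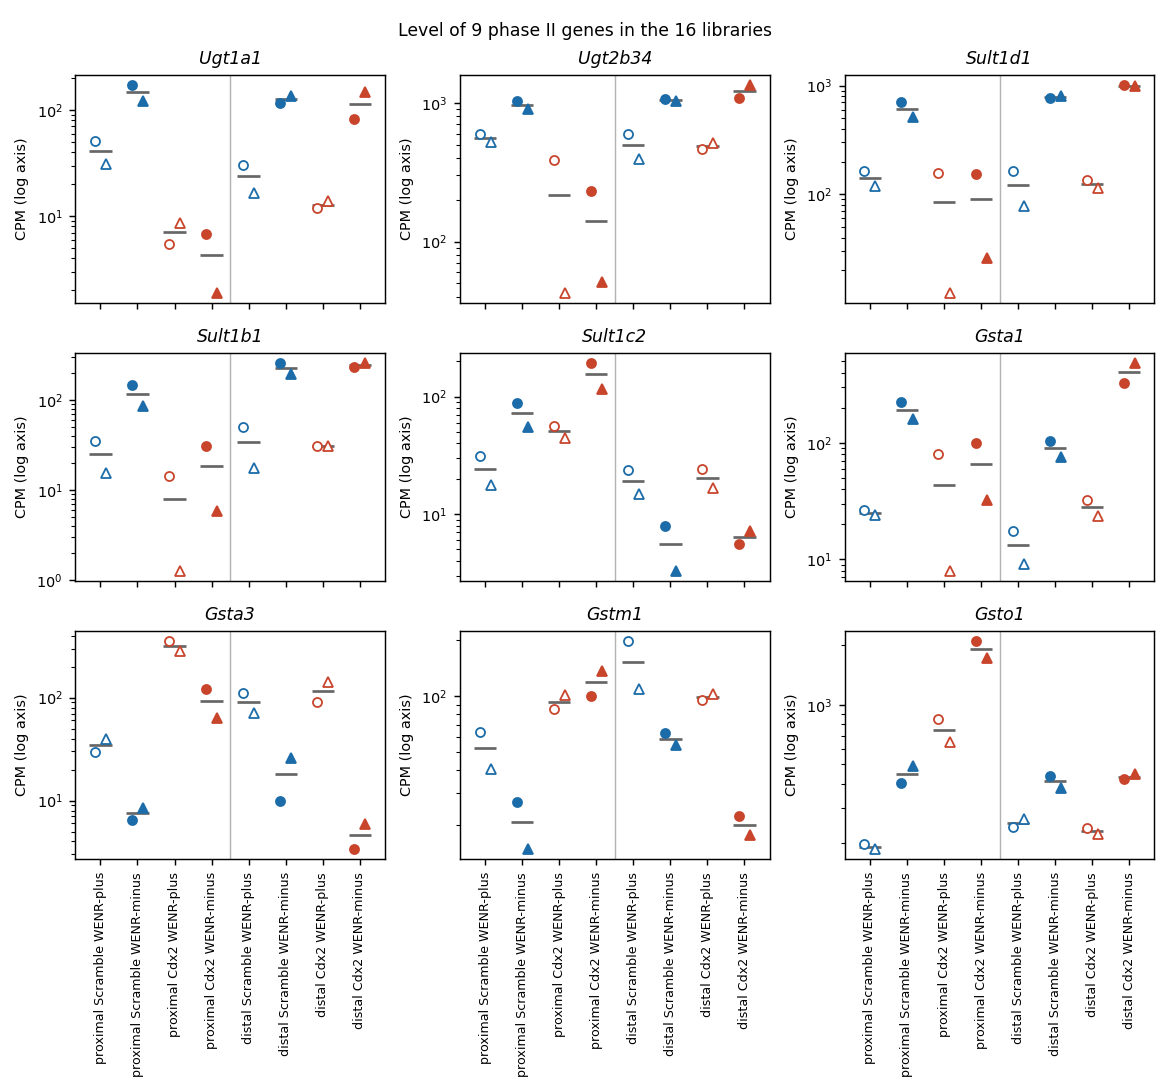
Each panel shows 1 gene in CPM on a log axis, with circles for replicate 1, triangles for replicate 2, blue for Scramble-sgRNA, red for Cdx2-sgRNA, open symbols for WENR-plus, filled symbols for WENR-minus and a bar at the mean. Ugt1a1 lies between 1.90 and 8.57 CPM in the proximal Cdx2-sgRNA libraries and Gsto1 between 651 and 2089 CPM, while replicate 2 lies far below replicate 1 there for Ugt2b34, Sult1d1, Sult1b1 and Gsta1.

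The 2 proximal Cdx2-sgRNA lines stood apart from each other. Among members with a group mean of at least 5 CPM, 7 of 23 differed more than 3-fold between the replicates in WENR-plus and 6 of 22 in WENR-minus medium, and none of 23 to 27 in each of the other 6 groups. Replicate 1 was the higher one in 6 of 7 and 6 of 6. The share over all genes was not counted, so this spread is not read as a trait of these members. For the theta-class gene Gstt1 the values were 23.7 and 2.86 CPM in WENR-plus and 10.3 and 0.740 CPM in WENR-minus medium. Gsta1 was at 79.7 and 7.98 and at 99.6 and 32.2 CPM, and Ugt2b35 at 10.7 and 0.476 CPM in WENR-plus medium. Below a mean of 5 CPM, and so outside these counts, were Gstt2 (7.31 and 0.212, and 4.08 and 0 CPM) and Ugt2b35 in WENR-minus medium (2.23 and 0.159 CPM). Each line is 1 clone from 1 mouse, so the clone and the mouse cannot be told apart. In an alternative added after the data were seen, both libraries of line 1 or of line 2 were left out. This leaves 1 library in each proximal Cdx2-sgRNA group, and no share of all genes stands beside the calls, so their number is not read here.

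In distal organoids the same comparison gave no call among the 38 genes in WENR-plus medium, against 0.262% of all tested genes, with 2 members at an unadjusted p under 0.05, and DESeq2 also called none. In WENR-minus medium 4 were called (10.5%), 1 higher and 3 lower, against 5.25% of all genes (2.24% higher and 3% lower). Gsta4 was higher, at 71.3 and 88.7 CPM with Scramble-sgRNA and 184 and 196 CPM with Cdx2-sgRNA (log2 1.25, SE 0.23, adjusted p = 0.0104). Gsta3 was lower, at 9.85 and 26.2 against 3.38 and 5.94 CPM (log2 −1.95, SE 0.51, adjusted p = 0.0353), and so was Gstm1, at 63.3 and 54.0 against 22.6 and 17.8 CPM (log2 −1.54, SE 0.35, adjusted p = 0.0209). Ugt1a6b was lower as well, at 1.43 CPM or less in every library (adjusted p = 0.0238, lost without Cdx2-sgRNA replicate 1 or Scramble-sgRNA replicate 2). No call stood under every omission of 1 library. That of Gsta4 was lost without Scramble-sgRNA replicate 1 (adjusted p = 0.064) or 2 (0.0591) or Cdx2-sgRNA replicate 2 (0.0564). That of Gsta3 was lost without Scramble-sgRNA replicate 2 (−1.08, 0.293) or Cdx2-sgRNA replicate 1 (−1.60, 0.182) or 2 (−2.41, 0.0915), and that of Gstm1 without any of the 4 libraries (−1.72 to −1.38, adjusted p = 0.0693 to 0.143). Ugt1a1 was not called there (116 and 135 against 81.5 and 147 CPM), nor was Gsto1 (440 and 382 against 424 and 445 CPM), and the groups of both overlap.

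**Figure D4:**
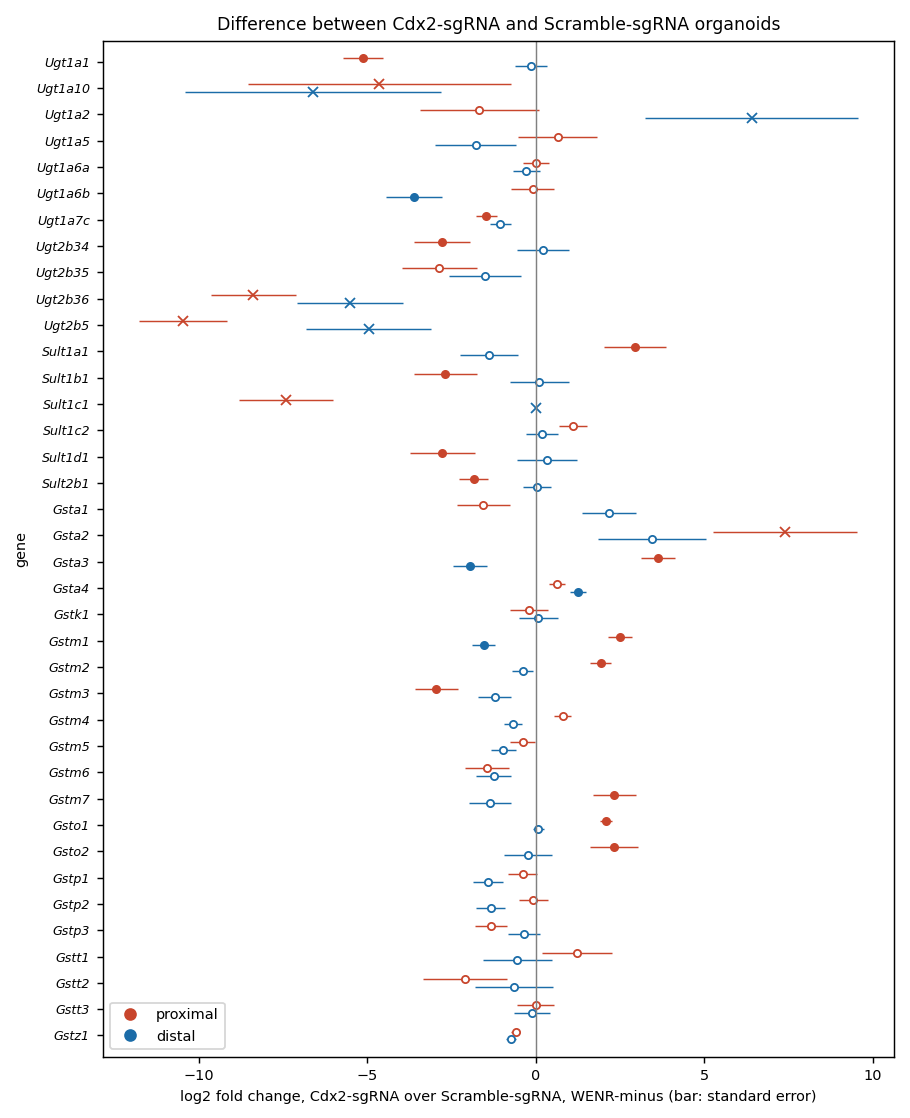
Log2 fold change of Cdx2-sgRNA over Scramble-sgRNA organoids in WENR-minus medium for the 38 genes, proximal in red and distal in blue, with bars of 1 standard error (back-calculated from the F statistic), filled points for calls, open points for genes not called and crosses where all libraries of a group are at 0 reads and the fitted value depends on the prior count. Gsta3 and Gstm1 carry filled points on opposite sides of 0 in the 2 regions. Their distal calls were lost in 3 of 4 omissions of 1 library (Gsta3) and in 4 of 4 (Gstm1).

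The regions were set against each other in a direct test, in which the distal effect of Cdx2-sgRNA was subtracted from the proximal one. In WENR-minus medium 10 members were called (26.3%), 8 of them above 0 and 2 below, against 14.3% of all tested genes (5.17% above and 9.08% below). Gsta3 (log2 difference 5.58, SE 0.71, adjusted p = 0.000476) and Gstm1 (4.05, SE 0.49, adjusted p = 0.00036) were higher in proximal and lower in distal Cdx2-sgRNA organoids, each by a call of its own. The distal calls were lost in 3 of 4 omissions for Gsta3 and in 4 of 4 for Gstm1. Sult1a1 (4.32, SE 1.25, adjusted p = 0.0369), Gstm7 (3.69, adjusted p = 0.0169), Gstm2 (2.31, 0.00471), Gsto1 (2.01, SE 0.24, adjusted p = 0.000319), Gstm4 (1.48, 0.0181) and the sparsely read Ugt1a6b (3.52) were the other positive ones. Sult1a1 stood at 17.0 and 10.6 CPM with Scramble-sgRNA and 7.19 and 3.43 CPM with Cdx2-sgRNA in distal organoids. Ugt1a1 (−4.98, SE 0.73, adjusted p = 0.00119) and Gsta1 (−3.72, SE 1.12, adjusted p = 0.0423) were the negative ones. Gsta1 itself was called in neither region, at 225 and 161 against 99.6 and 32.2 CPM in proximal and 104 and 76.1 against 325 and 484 CPM in distal organoids. The call of Gsta1 was lost in every omission but that of proximal Cdx2-sgRNA replicate 1 (−3.98 to −3.12, adjusted p = 0.0538 to 0.144), and that of Sult1a1 in every omission but those of proximal Scramble-sgRNA replicate 1 and proximal Cdx2-sgRNA replicate 2 (3.55 to 4.95, 0.0626 to 0.116). Gstm7 lost its call without proximal Scramble-sgRNA replicate 1 or replicate 1 of either distal group (2.89 to 3.62, 0.0593 to 0.0604). Gstm4 lost it without distal Scramble-sgRNA replicate 1 or replicate 2 of either Cdx2-sgRNA group (1.29 to 1.43, 0.0526 to 0.0624). Ugt1a6b lost it in every omission but those of distal Scramble-sgRNA replicate 1 and distal Cdx2-sgRNA replicate 2 (2.59 to 3.70, 0.0739 to 0.138).

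In WENR-plus medium 2 members were called (5.26%), both above 0, against 4.98% of all genes (1.22% above and 3.76% below). These were Gsto1 (2.09, SE 0.24, adjusted p = 0.00059) and Gsta3 (2.84, SE 0.64, adjusted p = 0.0269). In distal WENR-plus organoids Gsto1 stood at 241 and 264 CPM with Scramble-sgRNA and 239.9 and 223 CPM with Cdx2-sgRNA, and Gsta3 at 111 and 71.0 against 90.8 and 144 CPM. The call of Gsta3 was lost without proximal Scramble-sgRNA replicate 1 or 2, proximal Cdx2-sgRNA replicate 1 or replicate 1 of either distal group (2.53 to 3.07, adjusted p = 0.0554 to 0.104). For Ugt2b34, the lower level after Cdx2-sgRNA was called in proximal but not in distal WENR-minus organoids, and the difference between the regions did not pass the test (−2.99, SE 1.12, adjusted p = 0.0899).

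The next question was what the withdrawal of the niche factors does to the same genes. Libraries of the 2 media were tested as independent, although same-numbered ones of 1 culture deviated alike from their group means (correlation 0.281 to 0.589). The control organoids showed 11 calls of 38 in proximal (28.9%, 9 higher and 2 lower in WENR-minus, against 17% of all genes, 8.73% higher and 8.24% lower) and 8 in distal colon (21.1%, 5 higher and 3 lower, against 26.4%, 12.2% higher and 14.2% lower). Of the 9 higher in proximal colon, Ugt2b5, Ugt2b36 and Sult1c1 qualified through the WENR-minus group itself. In Cdx2-sgRNA organoids 5 were called in proximal (13.2%, 2 higher and 3 lower, against 6.4%, 3.42% higher and 2.98% lower) and 15 in distal colon (39.5%, 5 higher and 10 lower, against 33.1%, 14.9% higher and 18.1% lower). Over the 4 cultures 22 of the 38 genes were called at least once. The share of all genes called at least once was not counted, so this number is not read as a trait of these genes. The colonocyte markers summed to 1092 to 1128 CPM in proximal and 1589 to 1817 CPM in distal Scramble-sgRNA WENR-plus libraries, below the WENR-minus sums given above, and their part in these results was not tested.

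Ugt1a1 rose on withdrawal in 3 of the 4 cultures. It went from 50.6 and 31.1 to 173 and 122 CPM in proximal Scramble-sgRNA (log2 1.85, SE 0.49, adjusted p = 0.0161), from 30.6 and 16.7 to 116 and 135 CPM in distal Scramble-sgRNA (log2 2.41, SE 0.50, adjusted p = 0.00282) and from 11.8 and 13.9 to 81.5 and 147 CPM in distal Cdx2-sgRNA organoids (log2 3.15, SE 0.52, adjusted p = 0.000467). In proximal Cdx2-sgRNA organoids it was not called, at 5.45 and 8.57 CPM in WENR-plus and 6.76 and 1.90 CPM in WENR-minus medium. The proximal Scramble-sgRNA call was lost without WENR-minus replicate 1 (1.58, 0.0885) or WENR-plus replicate 2 (1.57, 0.114). Ugt2b5 rose in proximal Scramble-sgRNA organoids (log2 3.66, SE 0.76, adjusted p = 0.0107), a call lost without WENR-minus replicate 1 (3.39, 0.0658) or WENR-plus replicate 2 (3.07, 0.054). Ugt2b36, whose call was lost without WENR-plus replicate 2 (2.89, 0.0564), and Ugt1a7c rose there too (Ugt1a7c from 86.5 and 89.7 to 190 and 173 CPM, log2 1.04, SE 0.31, adjusted p = 0.0255, lost in all omissions but that of WENR-minus replicate 2, at 0.98 to 1.098). Ugt2b35 fell in distal Cdx2-sgRNA organoids (19.3 and 35.2 against 1.95 and 2.76 CPM, log2 −3.53, SE 1.08, adjusted p = 0.0192). That call was lost without WENR-minus replicate 1 (−3.30, 0.104) or 2 (−3.74, 0.0808) or WENR-plus replicate 2 (−2.99, 0.0784).

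Among SULTs, Sult2b1 rose from 7.31 and 6.98 to 30.1 and 22.9 CPM in proximal Scramble-sgRNA (log2 1.89, SE 0.43, adjusted p = 0.00799), from 6.31 and 3.23 to 44.1 and 26.4 CPM in distal Scramble-sgRNA (log2 2.88, SE 0.45, adjusted p = 0.000526) and from 7.39 and 7.25 to 33.6 and 39.3 CPM in distal Cdx2-sgRNA organoids (log2 2.32, SE 0.44, adjusted p = 0.00117). Without WENR-plus replicate 2 the proximal call was lost (1.89, 0.0509). Sult1c1 went from 1 and 1 to 19 and 26 reads in proximal Scramble-sgRNA organoids (adjusted p = 0.0268), a call that each of 4 omissions ended (0.0946 to 0.137). Sult1d1 rose from 164 and 78.0 to 774 and 798 CPM in distal Scramble-sgRNA (log2 2.70, adjusted p = 0.0411) and from 136 and 114 to 1013 and 986 CPM in distal Cdx2-sgRNA organoids (log2 3.003, SE 0.97, adjusted p = 0.0238). Sult1b1 rose in the same 2 cultures, from 50.8 and 17.4 to 256 and 194 CPM with Scramble-sgRNA (log2 2.72, adjusted p = 0.0354) and from 30.6 and 31.1 to 229.9 and 257 CPM with Cdx2-sgRNA (log2 2.98, adjusted p = 0.0214). Each of the 4 omissions ended the call of Sult1d1 in both (2.36 to 3.38 with Scramble-sgRNA and 2.92 to 3.21 with Cdx2-sgRNA). That of Sult1b1 in distal Scramble-sgRNA organoids was lost without WENR-minus replicate 1 (2.51, 0.112) or 2 (2.91, 0.0638) or WENR-plus replicate 2 (2.24, 0.184). In distal Cdx2-sgRNA organoids the call of Sult1b1 was lost in all omissions but that of WENR-minus replicate 1 (2.96 to 3.04, adjusted p = 0.053 to 0.0944). Neither gene was called in proximal Scramble-sgRNA organoids, yet the 2 media did not overlap there. Sult1d1 went from 162 and 120 to 704 and 515 CPM, and Sult1b1 from 34.7 and 15.4 to 147 and 85.9 CPM. With Cdx2-sgRNA in proximal organoids neither was called, and the media overlapped. Whether the response of these 2 genes differs between regions was not tested.

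Sult1c2, a sulfotransferase of the 1C subfamily, moved in opposite directions in the 2 regions. In proximal organoids it rose from 31.2 and 17.8 to 88.6 and 55.2 CPM with Scramble-sgRNA (log2 1.55, SE 0.43, adjusted p = 0.0192) and from 56.7 and 44.7 to 193 and 116 CPM with Cdx2-sgRNA (log2 1.61, SE 0.43, adjusted p = 0.0306). In distal organoids it fell from 23.6 and 14.9 to 7.93 and 3.30 CPM with Scramble-sgRNA (log2 −1.78, SE 0.46, adjusted p = 0.00908) and from 24.2 and 16.7 to 5.58 and 7.19 CPM with Cdx2-sgRNA (log2 −1.68, SE 0.46, adjusted p = 0.0103). In no culture do the 2 media overlap. The difference of the effects between regions was not tested. The call in distal Scramble-sgRNA organoids was lost without WENR-plus replicate 1 (−1.37, 0.0707) or WENR-minus replicate 2 (−1.28, 0.0761). That in proximal Cdx2-sgRNA organoids was lost without WENR-plus replicate 1 (1.79, 0.068) or 2 (1.45, 0.17) or WENR-minus replicate 1 (1.22, 0.147). That in proximal Scramble-sgRNA organoids was lost without WENR-minus replicate 1 (1.18, 0.131) or WENR-plus replicate 2 (1.24, 0.131), and that in distal Cdx2-sgRNA organoids was lost without replicate 1 of WENR-plus (−1.30, 0.075) or WENR-minus (−1.504, 0.0723).

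Gsta1 and Gsta3, both of the alpha class, responded in opposite directions. Gsta1 rose from 26.4 and 24.0 to 225 and 161 CPM in proximal Scramble-sgRNA (log2 2.93, SE 0.83, adjusted p = 0.0213), from 17.4 and 9.14 to 104 and 76.1 CPM in distal Scramble-sgRNA (log2 2.76, SE 0.83, adjusted p = 0.0203) and from 32.6 and 23.7 to 325 and 484 CPM in distal Cdx2-sgRNA organoids (log2 3.85, SE 0.86, adjusted p = 0.00331). Gsta3 fell in all 4 cultures: in distal Cdx2-sgRNA organoids from 90.8 and 144 to 3.38 and 5.94 CPM (log2 −4.65, SE 0.54, adjusted p = 4.7e-05), and in the others by 2.20 in proximal Scramble-sgRNA (adjusted p = 0.00628), 1.77 in proximal Cdx2-sgRNA (adjusted p = 0.0276) and 2.34 in distal Scramble-sgRNA organoids (adjusted p = 0.00246, from 111 and 71.0 to 9.85 and 26.2 CPM) on the log2 scale. Gsta1 reads summed with those of its near-copy Gm3776 gave calls in the same 3 cultures (log2 2.66, 2.71 and 3.72), an alternative added after the data were seen. The Gsta1 calls in Scramble-sgRNA organoids were lost without WENR-minus replicate 1 (2.68, 0.0819 proximal and 2.52, 0.0772 distal) or WENR-plus replicate 2 (2.90, 0.11 and 2.47, 0.123), and in proximal ones also without WENR-plus replicate 1 (3.05, 0.0951). Those of Gsta3 were lost in proximal Scramble-sgRNA organoids without WENR-minus replicate 1 (−2.01, 0.058) and in proximal Cdx2-sgRNA ones without WENR-plus replicate 1 (−1.61, 0.0791) or 2 (−1.92, 0.0778) or WENR-minus replicate 2 (−1.38, 0.143).

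Gstm1 fell in the same direction as Gsta3 in 3 cultures. It went from 64.2 and 40.5 to 26.9 and 14.9 CPM in proximal Scramble-sgRNA (log2 −1.33, SE 0.34, adjusted p = 0.0139), from 198 and 109.7 to 63.3 and 54.0 CPM in distal Scramble-sgRNA (log2 −1.39, SE 0.34, adjusted p = 0.00674) and from 95.4 and 102 to 22.6 and 17.8 CPM in distal Cdx2-sgRNA organoids (log2 −2.29, SE 0.35, adjusted p = 0.000285). In proximal Cdx2-sgRNA organoids it was not called, at 84.8 and 102 against 100.4 and 137 CPM. The proximal call was lost without WENR-plus replicate 1 (−0.91, 0.132) or WENR-minus replicate 2 (−0.90, 0.113), and the distal Scramble-sgRNA call without WENR-plus replicate 1 (−0.86, 0.0952) or WENR-minus replicate 2 (−1.28, 0.0518). Gsto1 rose in both proximal cultures (log2 1.21, SE 0.17, adjusted p = 0.000727 with Scramble-sgRNA and 1.35, SE 0.17, adjusted p = 0.00142 with Cdx2-sgRNA) and differed by less than the threshold in the distal ones (0.70, adjusted p = 0.00648, and 0.91, adjusted p = 0.00104). In proximal Cdx2-sgRNA organoids Gstp2 (80.1 and 89.995 against 27.8 and 32.9 CPM, log2 −1.48, adjusted p = 0.0471) and Gstm5 (12.5 and 20.04 against 6.68 and 6.08 CPM, log2 −1.35, adjusted p = 0.0345) fell, Gstp2 losing its call in each of 4 omissions (−1.61 to −1.34, adjusted p = 0.0806 to 0.194) and Gstm5 in all but that of WENR-plus replicate 1 (−1.40 to −0.97). In distal Cdx2-sgRNA organoids Gstm4, Gstm6, Gstm7, Gstp3 and Gstz1, which acts in tyrosine breakdown, fell as well, by 1.105 to 1.99 on the log2 scale, and so did the sparsely read Ugt1a6b (log2 −2.53). Of these, Gstm4 kept its call in all 4 omissions, and Gstz1 lost it only without WENR-minus replicate 2 (−0.98). Gstm6 lost it without WENR-plus replicate 1 (−1.64, 0.0561) or WENR-minus replicate 2 (−1.35, 0.112). Gstm7 lost it in all omissions but that of WENR-plus replicate 2 (−2.19 to −1.56, 0.0683 to 0.116). Ugt1a6b lost it in all but that of WENR-minus replicate 2 (−2.61 to −1.60, 0.0619 to 0.148). Gstp3 lost it in all but that of WENR-plus replicate 1 (−1.56 to −1.28, 0.0736 to 0.11).

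**Figure D5:**
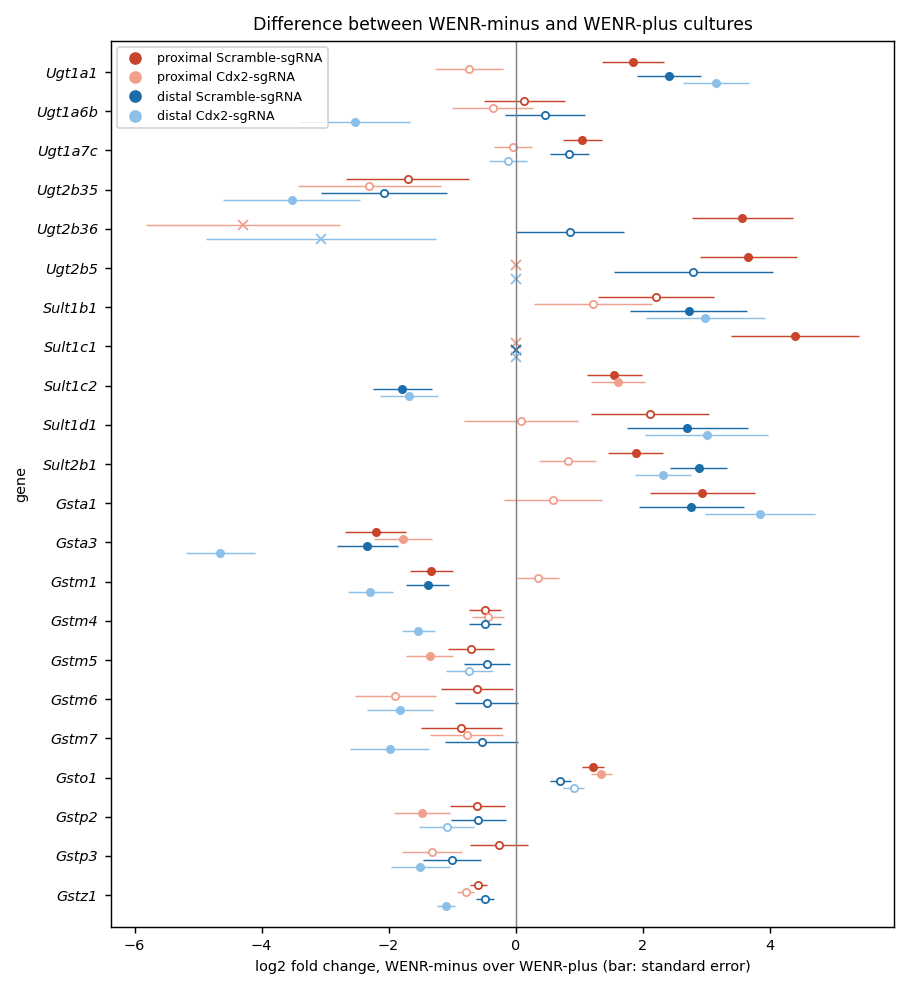
Log2 fold change of WENR-minus over WENR-plus medium for the 22 genes called in at least 1 of the 4 cultures, with bars of 1 standard error (back-calculated from the F statistic), filled points for calls, open points for genes not called and crosses where all libraries of a group are at 0 reads. Gsta3 lies left of 0 in all 4 cultures, and Sult1c2 lies right of 0 in both proximal and left of 0 in both distal cultures.

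Whether the response to withdrawal differed between guides was tested within each region. In proximal organoids 1 of 38 genes was called (2.63%), against 3.6% of all genes (1.67% above and 1.93% below 0). It was Ugt2b36, with 7 and 1 reads in WENR-plus and 44 and 43 in WENR-minus medium with Scramble-sgRNA, and 3 and 2 against 0 and 0 reads with Cdx2-sgRNA. This gene qualified through the Scramble-sgRNA WENR-minus group, where it is high. Its fitted difference of −7.85 (adjusted p = 0.0389) depends on the prior count, and the call was lost in every omission but that of Scramble-sgRNA WENR-minus replicate 2 (adjusted p = 0.0528 to 0.11). In distal organoids none was called, against 0% of all genes (5 members at an unadjusted p under 0.05, and 1 called by DESeq2). For Ugt1a1, whose rise was called with Scramble-sgRNA and not with Cdx2-sgRNA in proximal organoids, the difference did not pass the test (−2.58, SE 0.72, adjusted p = 0.066), nor did that of Gstm1 (1.67, SE 0.47, adjusted p = 0.0681).

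The regions were compared in Scramble-sgRNA organoids. In WENR-plus medium 3 members were called, all lower in proximal colon (7.89%, against 1.75% of all genes, 0.68% higher and 1.07% lower), and in WENR-minus medium 10, 5 in each direction (26.3%, against 6.08%, 2.88% higher and 3.2% lower). Gstp2 stood at 67.0 and 30.2 CPM in proximal and 269 and 193 CPM in distal WENR-plus libraries (log2 −2.25, SE 0.45, adjusted p = 0.027) and at 46.0 and 18.0 against 114 and 193 CPM in WENR-minus medium (log2 −2.26, SE 0.45, adjusted p = 0.0105). Its neighbour Gstp1, which shares much of its sequence, was called in neither medium (117.8 and 135 against 212 and 202 CPM in WENR-plus). The Gstp sum, which does not depend on the split between them, stood at 192 and 170 against 489 and 407 CPM in WENR-plus. In WENR-minus medium it stood at 157 and 119 against 256 and 471 CPM. Gstm6 stood at 1.19 and 1.78 against 16.6 and 6.83 CPM in WENR-plus (log2 −2.98, SE 0.55, adjusted p = 0.0175) and at 0.558 and 1.35 against 8.93 and 8.17 CPM in WENR-minus medium (log2 −3.13, SE 0.56, adjusted p = 0.00675). Gstm1 was lower in proximal colon in both media (log2 −1.55, SE 0.34, adjusted p = 0.0406, and −1.49, SE 0.34, adjusted p = 0.02), and Gstm3 (5.27 and 2.92 against 29.0 and 29.4 CPM, log2 −2.84, SE 0.53, adjusted p = 0.00793) and Gstm2 (log2 −1.42, SE 0.31, adjusted p = 0.0154) in WENR-minus medium. There Gstm1 lost its call without proximal replicate 2 (−1.12, 0.156) or distal replicate 1 (−1.37, 0.0941) or 2 (−1.60, 0.0654), and Gstm2 without replicate 1 of either region (−1.42, 0.0652 and −1.17, 0.0976) or proximal replicate 2 (−1.48, 0.0932).

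Higher in proximal colon, in WENR-minus medium, were Sult1c2 at 88.6 and 55.2 against 7.93 and 3.30 CPM (log2 3.68, SE 0.48, adjusted p = 0.00126), Gsta4 at 304 and 224 against 71.3 and 88.7 CPM (log2 1.72, SE 0.24, adjusted p = 0.0017), Ugt2b5 (12.5 and 8.75 against 0.308 and 0.143 CPM, log2 5.52, SE 0.88, adjusted p = 0.0104), Ugt2b36 and Sult1c1. Sult1c1 was at 0 reads in both distal libraries, at least 5.68-fold lower than in proximal ones (adjusted p = 0.0379). Ugt2b5, Ugt2b36 and Sult1c1 qualified through the proximal group of this comparison. Sult1c1 and Ugt2b36 (log2 2.88, adjusted p = 0.0485) lost their calls in each of 4 omissions (adjusted p = 0.101 to 0.167 and 0.131 to 0.213). Ugt1a1, Ugt2b34 and Sult1d1 were called in neither medium. All 3 calls in WENR-plus were lost in 3 of 4 omissions: Gstm6 and Gstm1 without distal replicate 1 (−2.21, 0.108 and −1.08, 0.252), proximal replicate 1 (−2.71, 0.188 and −1.92, 0.113) or proximal replicate 2 (−3.26, 0.108 and −1.23, 0.284), and Gstp2 without distal replicate 1 (−1.99, 0.14) or 2 (−2.43, 0.0693) or proximal replicate 2 (−1.76, 0.2). In WENR-minus medium the calls of Sult1c2, Gsta4 and Gstm6 stood in all 4 omissions, while that of Gstm3 was lost without proximal replicate 2 (−2.47, 0.0828), that of Gstp2 without proximal or distal replicate 2 (−1.74, 0.0772 and −1.83, 0.0764) and that of Ugt2b5 without proximal replicate 2 (5.76, 0.0502) or distal replicate 1 (6.14, 0.0575) or 2 (5.08, 0.0838).

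Sums over a subfamily were tested in the same way, but not under omission of single libraries. In proximal WENR-minus organoids the Ugt1a sum fell from 372 ± 43.9 to 113 ± 14.8 CPM (mean ± SD, n = 2; log2 −1.72), the Ugt2 sum from 989 ± 89.0 to 143 ± 130.2 CPM (−2.79) and the Sult1 sum from 801 ± 202 to 278 ± 170.3 CPM (−1.53), while the Gstm sum rose from 60.9 ± 10.9 to 211 ± 38.7 CPM (1.79) and the Gsto sum from 448 ± 63.2 to 1911 ± 253 CPM (2.09). In the same 2 groups Ugt2b34 alone averaged 968 and 142 CPM, and Sult1d1 alone 610 and 89.7 CPM. Both genes lost their calls in 3 of 4 omissions, so the Ugt2 and Sult1 sums are no separate support. The Gsta sum was not called there (464 ± 100.3 and 569 ± 124 CPM), with Gsta1 at 225 and 161 against 99.6 and 32.2 CPM and Gsta3 higher in the Cdx2-sgRNA libraries. In distal WENR-minus organoids the Gsta sum rose (log2 1.67, adjusted p = 0.00592) and the Gstp sum fell (−1.36, adjusted p = 0.0284). The Gstt sum was called in none of the 10 comparisons of 2 groups. Between regions in Scramble-sgRNA WENR-minus organoids the Gstm sum stood at 60.9 ± 10.9 CPM in proximal and 173 ± 18.8 CPM in distal colon. The Gsta sum stood at 464 ± 100.3 and 188 ± 4.0 CPM there. On withdrawal the Sult1 sum rose in both Scramble-sgRNA cultures and in distal Cdx2-sgRNA organoids (log2 2.05, 2.53 and 2.80), and the Ugt1a sum rose in both Scramble-sgRNA cultures (1.22 and 1.15). The Gsta sum rose in proximal Scramble-sgRNA and distal Cdx2-sgRNA organoids (1.24 and 1.01) and the Gsto sum in both proximal cultures (1.21 and 1.34). The Gstm sum fell in proximal Scramble-sgRNA (−1.002, adjusted p = 0.0316) and distal Cdx2-sgRNA organoids (−1.34, adjusted p = 0.00413), and the Gstp sum fell in both Cdx2-sgRNA cultures (proximal −1.39, adjusted p = 0.0205; distal −1.08, 0.0191).

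Genes that supply and regulate these enzymes were read from lists of named genes, whose counts and medians stand beside those of all tested genes. In proximal Cdx2-sgRNA organoids 8.94% of all genes fell and 6.93% rose in WENR-plus (median log2 fold change −0.05), and 12.1% fell and 9.04% rose in WENR-minus medium (median 0). In proximal Cdx2-sgRNA organoids 1 of 7 tested genes for the sulfate donor fell in WENR-plus and 2 in WENR-minus medium, and none rose. The medians were −0.501 and −0.57. A count of 1 of 7 is close to the share of all genes. Papss2, which makes the activated sulfate PAPS, gave log2 fold changes of −5.77 (adjusted p = 2.67e-05) and −7.07 (adjusted p = 5.12e-06), and Bpnt1 −1.09 in WENR-minus medium. Of 5 genes of UDP-glucuronate supply, Ugdh rose in WENR-plus (log2 1.21, adjusted p = 0.0306) and Ugp2 fell in WENR-minus medium (−1.19, adjusted p = 0.0166). The medians were 0.249 and −0.695. Of 9 genes of glutathione supply, Gclc, the catalytic subunit of the rate-limiting ligase (log2 1.79, adjusted p = 0.0329), and the cystine carrier Slc7a11 (1.01, adjusted p = 0.0254) rose in WENR-plus medium (against 6.93% of all genes), and none was called in WENR-minus. The medians were 0.377 and 0.032.

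Of 11 xenobiotic and lipid receptors and liver-enriched factors, 6 fell in WENR-plus and 7 in WENR-minus medium in proximal Cdx2-sgRNA organoids (against 8.94% and 12.1% of all genes) and none rose. The list's medians were −1.565 and −2.227. The vitamin D receptor gene Vdr gave −5.68 (adjusted p = 1.31e-05) and −6.89 (adjusted p = 3.01e-06) on the log2 scale, and Ppara, a fatty acid receptor gene, −5.12 (adjusted p = 0.00771) in WENR-minus medium. On withdrawal none of the 11 fell, and 4 rose in proximal Scramble-sgRNA, 3 in proximal Cdx2-sgRNA, 5 in distal Scramble-sgRNA and 6 in distal Cdx2-sgRNA organoids, against 8.73%, 3.42%, 12.2% and 14.9% of all genes. In distal organoids Cdx2-sgRNA gave no call among them in either medium (edgeR, adjusted p).

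Of 16 genes of the Nrf2 list, 4 rose in proximal Cdx2-sgRNA WENR-plus organoids, and 2 rose and 1 fell in WENR-minus medium, against 6.93% of all genes higher in WENR-plus and 21.2% called in either direction in WENR-minus medium, near which the latter count lies. The medians were 0.698 and 0.549. Me1 (log2 2.37, adjusted p = 0.00195, and 2.32, adjusted p = 0.00145) rose in both, and Nqo1, a standard Nrf2 target, was not called in either. Of 7 tested genes of the aryl hydrocarbon receptor list 3 rose in each medium (against 6.93% and 9.04% of all genes), with medians of 0.695 and 0.069. The aldehyde dehydrogenase gene Aldh3a1 rose by 8.28 (adjusted p = 0.000264) and 9.67 (adjusted p = 0.000123) (0.221 against 75.3 CPM and 0.0929 against 76.1 CPM), and Cyp1b1 by 7.41 (adjusted p = 4.21e-06) and 6.57 (adjusted p = 7e-06) on the log2 scale, while Cyp1a1, a standard target of the receptor, fell in WENR-plus medium (−5.28, adjusted p = 0.000178).

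Of 7 tested genes of the list on removal of conjugates, 5 fell in WENR-plus and 6 in WENR-minus proximal Cdx2-sgRNA organoids (against 8.94% and 12.1% of all genes) and none rose. The medians of this list were −4.439 and −6.587. All of them were carboxylesterases, which split esters and amides rather than glucuronides or sulfates, with Ces1g at −9.83 in WENR-plus and Ces2e at −8.68 in WENR-minus medium on the log2 scale. Of 5 tested microsomal GST genes, which are membrane proteins apart from the cytosolic families, 2 rose in WENR-plus and 1 in WENR-minus medium (against 6.93% and 9.04% of all genes, medians 1.013 and −0.19), Mgst2 by 1.02 on the log2 scale in WENR-plus. Of 4 tested genes of other conjugation enzymes, 1 fell in WENR-plus and 2 in WENR-minus medium (against 8.94% and 12.1% of all genes, medians −0.944 and −1.429), Tpmt with log2 fold changes of −1.37 and −1.78.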

How the data were processed

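RNA was measured in 16 mouse colon organoid libraries (8 groups of 2, from 2 mice per group per the methods), made with a stranded total RNA kit and sequenced as paired ends. The authors quantified transcripts with Salmon (1.1 or 1.1.0 in the submitters' processing notes, with mm10) on GENCODE vM23 transcripts, and deposited estimated counts and TPM per transcript; replicates were not pooled. The notes also name DESeq2 1.32, whose results were not used.

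From the deposited estimated counts, transcripts were summed per gene with GENCODE vM21 names (139864 transcripts, 54123 genes; 0.257 to 0.509% of counts per library had no match), and the sums were rounded. Totals of 12465194 to 18922143 counts limit the precision of low genes; bounds for groups at 0 reads use 3 reads per library and cover counting error only. In R 4.3.3, edgeR 4.0.16 (filterByExpr, TMM, quasi-likelihood fit over all 8 groups, Benjamini-Hochberg adjustment over 15289 genes) gave log2 fold changes and adjusted p. SE was back-calculated as the absolute log2 fold change over the square root of the F statistic. It is thus no measure of spread apart from the test. The deposited TPM served only for levels per length. By rule, values in every library were given for the 3 called members with the largest rise and the 3 with the largest fall in each comparison of 2 groups, among those at 5 CPM or more in the higher group, and for up to 3 per direction called in a difference of effects, while the 5 with the highest median TPM were given by median and range; pathway lists were given as counts with their largest changes. Other members and pathway genes named beside these were picked after their values were seen. Promoters are RefSeq's (GRCm38.p6).

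The members and lists were chosen with earlier results of these data known. The labels give only a replicate number and the methods name 2 independent mice. That a number marks the same mouse in all groups is assumed. Over 28 pairs of groups, deviations of same-numbered libraries correlated at −0.059 to 0.589 (median 0.073, 9 pairs over 0.1). The highest were between the 2 media of 1 culture (0.589 and 0.407 in proximal Cdx2-sgRNA and Scramble-sgRNA, 0.404 and 0.281 in distal ones). All other pairs gave at most 0.189. The main fit held no pairing, so tests across media took these libraries as independent. The alternatives were a replicate block, RLE size factors, no filter, length-scaled counts, no fold threshold, only the libraries compared, DESeq2 1.42.0 and omission of each library. The code was tested on simulated data.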

Additional observations from a re-analysis of the deposited data

Results flagged for a closer look

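These 13 values are differences between effects that passed the test of the difference itself (edgeR interaction contrast). With the distal effect of Cdx2-sgRNA subtracted from the proximal one, they were 2.84 for Gsta3 and 2.09 for Gsto1 in WENR-plus medium on the log2 scale. In WENR-minus medium they were 5.58 for Gsta3, 4.32 for Sult1a1, 4.05 for Gstm1, 3.69 for Gstm7, 3.52 for Ugt1a6b, 2.31 for Gstm2, 2.01 for Gsto1, 1.48 for Gstm4, −3.72 for Gsta1 and −4.98 for Ugt1a1. For the response to withdrawal with Cdx2-sgRNA minus that with Scramble-sgRNA, Ugt2b36 gave −7.85 in proximal organoids, a fitted value that depends on the prior count since 1 group was at 0 reads. Ugt2b36 also qualified through the proximal Scramble-sgRNA WENR-minus group, where it is high. Of the 10 differences in WENR-minus medium, 5 kept their call in every omission of 1 library, and of the 2 in WENR-plus medium 1 did. Groups of 2 libraries were too small to look for single libraries far from the rest. The proximal Cdx2-sgRNA libraries differed also in colonocyte and goblet markers and between the 2 lines, and the part of these in the differences was not tested.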

How the results depend on the processing

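Counts of called members are given for each alternative that moved them by over 1.5 times. The share of all genes under each alternative is not set beside them, so they describe the processing and not these genes. Without the filter on low counts they were 15 for Cdx2-sgRNA in proximal WENR-plus organoids (8 with the filter), 2 in distal WENR-plus (0) and 15 in distal WENR-minus medium (4), 13 for withdrawal in proximal Cdx2-sgRNA organoids (5), 8 and 17 for region in WENR-plus and WENR-minus medium (3 and 10), 16 and 20 for the region difference of the Cdx2-sgRNA effect (2 and 10), and 10 and 3 for the guide difference of withdrawal in proximal and distal organoids (1 and 0). With only the libraries compared in the fit they were 5 for Cdx2-sgRNA in proximal WENR-plus organoids and 0 for withdrawal in proximal Cdx2-sgRNA organoids, region in WENR-plus medium and the proximal guide difference. DESeq2 gave 8 for withdrawal in proximal Cdx2-sgRNA organoids, 5 for region in WENR-plus medium, 4 for the region difference in WENR-plus medium, and 2 and 1 for the proximal and distal guide difference. In alternatives chosen after seeing the data, 1 proximal Cdx2-sgRNA line was left out in both media, which leaves 1 library per group. Without line 1 the count moved by that much for Cdx2-sgRNA in proximal WENR-plus organoids, for withdrawal in proximal Cdx2-sgRNA organoids and for the region difference in WENR-plus medium. Without line 2 it moved for withdrawal in proximal Cdx2-sgRNA organoids and for the proximal guide difference. The cause of these changes was not tested. RLE size factors, length-scaled counts, no fold threshold and Gsta1 summed with Gm3776 moved none of 14 counts by that much.

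With the replicate block, 1 shift of replicate 2 shared by all 8 groups, the count changed by that much only for the proximal guide difference (2). It was 9 and 20 for Cdx2-sgRNA in proximal WENR-plus and WENR-minus medium. A shared shift cannot take up a pairing of the media within each culture, so the block does not check that pairing. All 53 named values kept their call under the block. Of the 53, 13 lost it with only the libraries compared in the fit, 2 with length-scaled counts and 1 with DESeq2, as did 8 of 24 values without proximal Cdx2-sgRNA line 1 and 8 of 24 without line 2. In the omissions of 1 library 143 of 244 values kept their call and the others lost it. None changed sign under any alternative.

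Leaving out 1 library at a time gave 3 to 12 and 11 to 19 calls for Cdx2-sgRNA in proximal WENR-plus and WENR-minus organoids (the lowest without Cdx2-sgRNA replicate 2 and Scramble-sgRNA replicate 1) and 0 to 0 and 0 to 2 in distal ones (0 without Scramble-sgRNA replicate 2). Withdrawal gave 4 to 11 and 1 to 3 in proximal Scramble-sgRNA and Cdx2-sgRNA organoids (the lowest without WENR-minus replicate 1 and WENR-plus replicate 2), and 5 to 6 and 8 to 10 in distal ones. Region gave 0 to 3 and 3 to 7 in WENR-plus and WENR-minus medium, its effect difference 1 to 3 and 6 to 12, and the guide difference 0 to 1 in proximal and 0 to 0 in distal organoids. The library left alone in its group is assumed to vary like the other groups. Groups of 2 and counts under about 10 reads limit what could be detected.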
